A study of Mus musculus with 36 samples.

Results

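The genes described here are 10 chaperones and folding factors of the endoplasmic reticulum (ER), the compartment in which secreted and membrane proteins are folded. They are Hspa5 (ENSMUSG00000026864), Hsp90b1 (ENSMUSG00000020048), Calr (ENSMUSG00000003814), Pdia4 (ENSMUSG00000025823), Pdia6 (ENSMUSG00000020571), Dnajb9 (ENSMUSG00000014905), Sdf2l1 (ENSMUSG00000022769), Hyou1 (ENSMUSG00000032115), Manf (ENSMUSG00000032575) and Creld2 (ENSMUSG00000023272). They were taken from a list of gene names and not by a threshold on the values. All 10 were among the 29546 genes of the deposited table, and all 10 were among the 12596 genes tested, which had a normalized count of 10 or more in 4 or more of the 36 libraries.

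The study compared cholestasis, the arrest of bile flow, in the livers of C57BL/6 mice made cholestatic in 3 ways. Livers were taken at 7 or 28 days, which the group names carry. In BDL7 and BDL28 the bile duct had been tied, and their controls underwent a sham operation (SHAM). In DDC7 and DDC28 the mice ate DDC, a porphyrinogenic compound that injures bile ducts, at 0.1% of the food by weight, and their controls ate the control diet (CTLD). In CsA7 and CsA28 they received cyclosporin A, an immunosuppressant that inhibits bile secretion, at 15 mg/kg by gavage, and their controls received its solvent, olive oil (VEHICLE). Each of the 9 groups held 4 libraries. The labels give no age, no sex and no day for the controls, so the 4 controls of a model served both of its days. Whether each library came from its own mouse is not spelled out, so p-values measure the spread between samples listed as separate.

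Hspa5, also called BiP or GRP78, is the Hsp70 chaperone of the ER and holds the stress sensors ATF6, IRE1 and PERK in check. When unfolded protein accumulates, the sensors start the unfolded protein response, in which ATF6 and the XBP1 made through IRE1 raise transcription of chaperone genes through the ER stress response element (ERSE) in their promoters. Hepatocytes secrete most plasma proteins and carry a large ER, so these genes are abundant in liver.

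The ERSE was searched because it is the element the chaperone genes are known to share. RefSeq promoters of GRCm38.p6 were matched by symbol for 8 of the 10 genes, and Manf and Hyou1 were not in that table. In the 250 bases before the start, the letters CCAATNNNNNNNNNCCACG on either strand were found in 5 of the 8 genes, and in 37 of 32851 promoters of that length (0.113%). The matches are shown on the strand of the gene, 5′ to 3′, with the matched letters in capitals and 15 bases to each side.
Hspa5, chr2:34772010-34772058, plus strand: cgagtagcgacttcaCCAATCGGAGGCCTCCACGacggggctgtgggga
Hsp90b1 first match, chr10:86705623-86705671, minus strand: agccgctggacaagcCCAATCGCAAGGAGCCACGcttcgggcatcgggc
Hsp90b1 second match, chr10:86705518-86705566, minus strand: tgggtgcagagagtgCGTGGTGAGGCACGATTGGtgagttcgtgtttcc
Calr, chr8:84847060-84847108, minus strand: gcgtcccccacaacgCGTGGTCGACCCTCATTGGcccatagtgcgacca
Pdia6, chr12:17266476-17266524, plus strand: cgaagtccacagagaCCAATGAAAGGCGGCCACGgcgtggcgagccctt
Creld2, chr15:88819505-88819553, plus strand: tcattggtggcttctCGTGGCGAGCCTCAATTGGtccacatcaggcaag
The first matched base lay 65 bases before the start in Hspa5, 98 in Pdia6, 126 in Creld2, 162 in Calr, and 212 and 107 in Hsp90b1. The shorter letters ATTGGNCCACG (ERSE-II) and TGACGTGG (the unfolded protein response element) were found in 10 and 185 of the 32851 promoters, and in 0 of the 8. A match describes letters only; whether a factor binds there was not measured. Gene coordinates for the expression values are not given, because the study used the build GRCm39.

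Recovered reads per library ran from 2081093 to 3770267, and 15816 to 18623 genes had at least 1 read. The lowest read count behind any value of the 10 genes was 30 (Creld2 in DDC28), and for Hspa5 it was 2065. The values are normalized counts, which are reads divided by 1 factor per library, and groups are given as mean ± SD of 4 libraries. Changes are log2 fold changes on the log2(normalized count + 1) scale with a standard error (SE) from limma, and called genes are those whose p, adjusted by Benjamini and Hochberg's method over all tested genes, was under 0.05. The libraries were of whole liver, so fewer cells of a type and less RNA per cell cannot be told apart.

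The 10 chaperone genes were lower in BDL28, DDC7 and DDC28 and, for most, in CsA7. In BDL28 all 10 fell, with a median log2 fold change of -1.17 against 0.034 over all tested genes, where 22.7% of tested genes were called lower. In DDC7 all 10 fell (median -1.28, background 22.1%), and in DDC28 all 10 fell (median -1.53, background 24.7%). In CsA7 8 of 10 fell (median -0.90), where only 2.14% of all tested genes were called lower. In BDL7 2 of 10 fell (median -0.25), a count near the background of 18.5%. In CsA28 0 of 10 were called (median -0.52, background 0.0159%). No chaperone of the 10 was called higher by limma with the authors' scaling, where the shares of all tested genes called higher were 20.2% in BDL7, 24.1% in BDL28, 24.7% in DDC7, 27.9% in DDC28, 1.88% in CsA7 and 0.00794% in CsA28. In BDL7, 1 was called higher when libraries were scaled to their totals and 3 after quantile normalization.

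**Figure D1:**
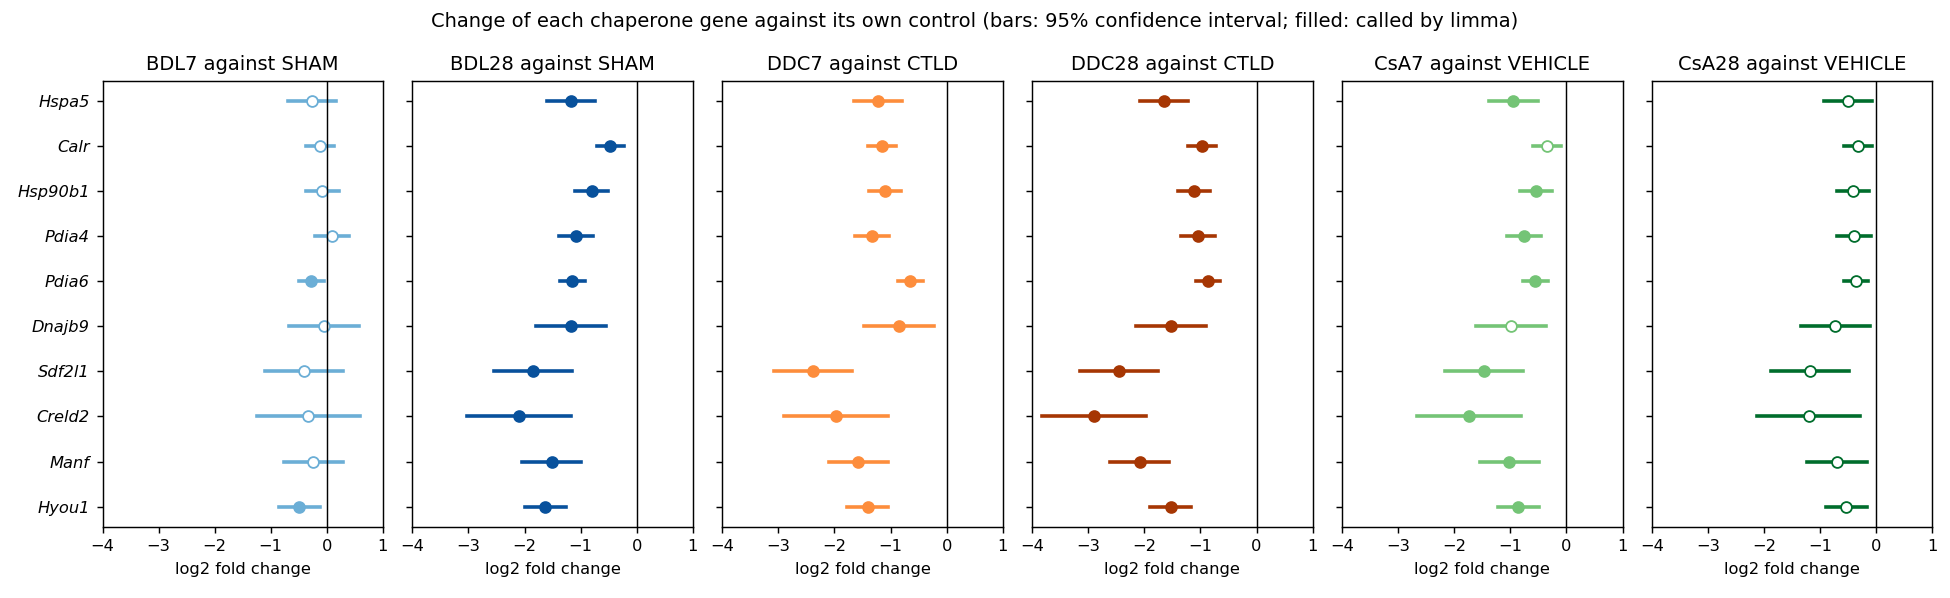
Log2 fold change of each of the 10 genes against its own control in the 6 comparisons, with 95% confidence intervals from limma; filled points were called and open points were not. All points lie below 0 in BDL28, DDC7, DDC28, CsA7 and CsA28, and the medians run from -0.25 in BDL7, which turns to 0.076 with library totals as the scaling, to -1.53 in DDC28.

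Single libraries were then compared. The 4 treated libraries lay below all 4 controls for 10 of 10 genes in BDL28 (18.6% of all tested genes), for 9 in DDC7 (20.8%), for 10 in DDC28 (22.0%) and for 9 in CsA7 (5.26%). In BDL7 (19.2%) and CsA28 (2.64%) this held for 0 of 10. In CsA28 3 of the 4 libraries lay below all VEHICLE libraries for each of the 10 genes. The one that did not was replicate 4 for 9 genes and replicate 1 for Pdia4 (296 against 261 in the lowest VEHICLE library). The share of all tested genes with 3 of 4 libraries below is not given here, so this count is a description only.

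Hspa5 was the reference member. In SHAM its normalized counts were 6437, 5708, 4539 and 7472, in BDL7 they were 7148, 4760.5, 4784 and 3773, and in BDL28 they were 2278, 3382, 2563 and 2407. In the diet groups they were 5290.2, 7249.9, 8898 and 6835 in CTLD, 3279.5, 3612, 2409 and 2693 in DDC7, and 2229, 2427, 1867 and 2373 in DDC28. In the cyclosporin groups they were 4849, 6383, 6372 and 6132 in VEHICLE, 2905, 3561, 2681 and 3173 in CsA7, and 3823, 3247, 3326 and 7187 in CsA28. BDL7 overlapped SHAM, with 1 library below all of its controls, while BDL28, DDC7, DDC28 and CsA7 each lay apart from their controls. Hspa5 fell 2.26-fold in BDL28 (log2 -1.18 ± 0.21 SE, limma adjusted p = 3.14e-05), 2.35-fold in DDC7 (-1.23 ± 0.21, adjusted p = 1.87e-05) and 3.14-fold in DDC28 (-1.65 ± 0.21, adjusted p = 1.22e-07). It fell 1.93-fold in CsA7 (-0.94 ± 0.21, adjusted p = 0.0081). After quantile normalization the DDC7 change was -0.40 (limma adjusted p = 0.113) and the CsA7 change -0.61 (adjusted p = 0.0988), and neither was called. In BDL7 its change was -0.26 ± 0.21 (adjusted p = 0.362) and in CsA28 -0.51 ± 0.21 (adjusted p = 0.439).

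Hsp90b1 encodes GRP94, the Hsp90 paralogue of the ER, and Hspa5 and Hsp90b1 had the highest correlation of any pair once group means were subtracted (r = 0.93 over 36 libraries). Its counts averaged 3245 ± 469 in SHAM, 3103 ± 703 in BDL7 and 1849 ± 155 in BDL28. They averaged 3531 ± 544 in CTLD, 1646 ± 233 in DDC7 and 1628 ± 207 in DDC28. Hsp90b1 fell in BDL28 (log2 fold change -0.80), DDC7 (-1.1), DDC28 (-1.11) and CsA7 (-0.54), with limma adjusted p-values of 2.15e-05, 1.32e-07, 6.33e-08 and 0.0238. The CsA7 call of Hsp90b1 was lost with library totals as the scaling (-0.41, limma adjusted p = 0.0728) and after quantile normalization (-0.29, adjusted p = 0.343). Its level was 3193 ± 343 in VEHICLE, 2186 ± 156 in CsA7 and 2433 ± 623 in CsA28.

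Calr encodes calreticulin, a lectin chaperone that holds glycoproteins during folding, and it had the smallest change of the 10 in BDL28. It averaged 1902 ± 153 in SHAM, 1754 ± 265 in BDL7 and 1376 ± 179 in BDL28, a fall of 0.47 (adjusted p = 0.00158) that was not called when libraries were scaled to their totals (-0.21, adjusted p = 0.139) or quantile normalized (-0.24, adjusted p = 0.114). DDC feeding gave a larger change: Calr averaged 2233 ± 216 in CTLD, 1005 ± 124 in DDC7 and 1144 ± 165 in DDC28. Those log2 fold changes were -1.15 ± 0.12 and -0.97 ± 0.12. In CsA7 Calr changed by -0.35 ± 0.12 (adjusted p = 0.103) and was not called.

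**Figure D2:**
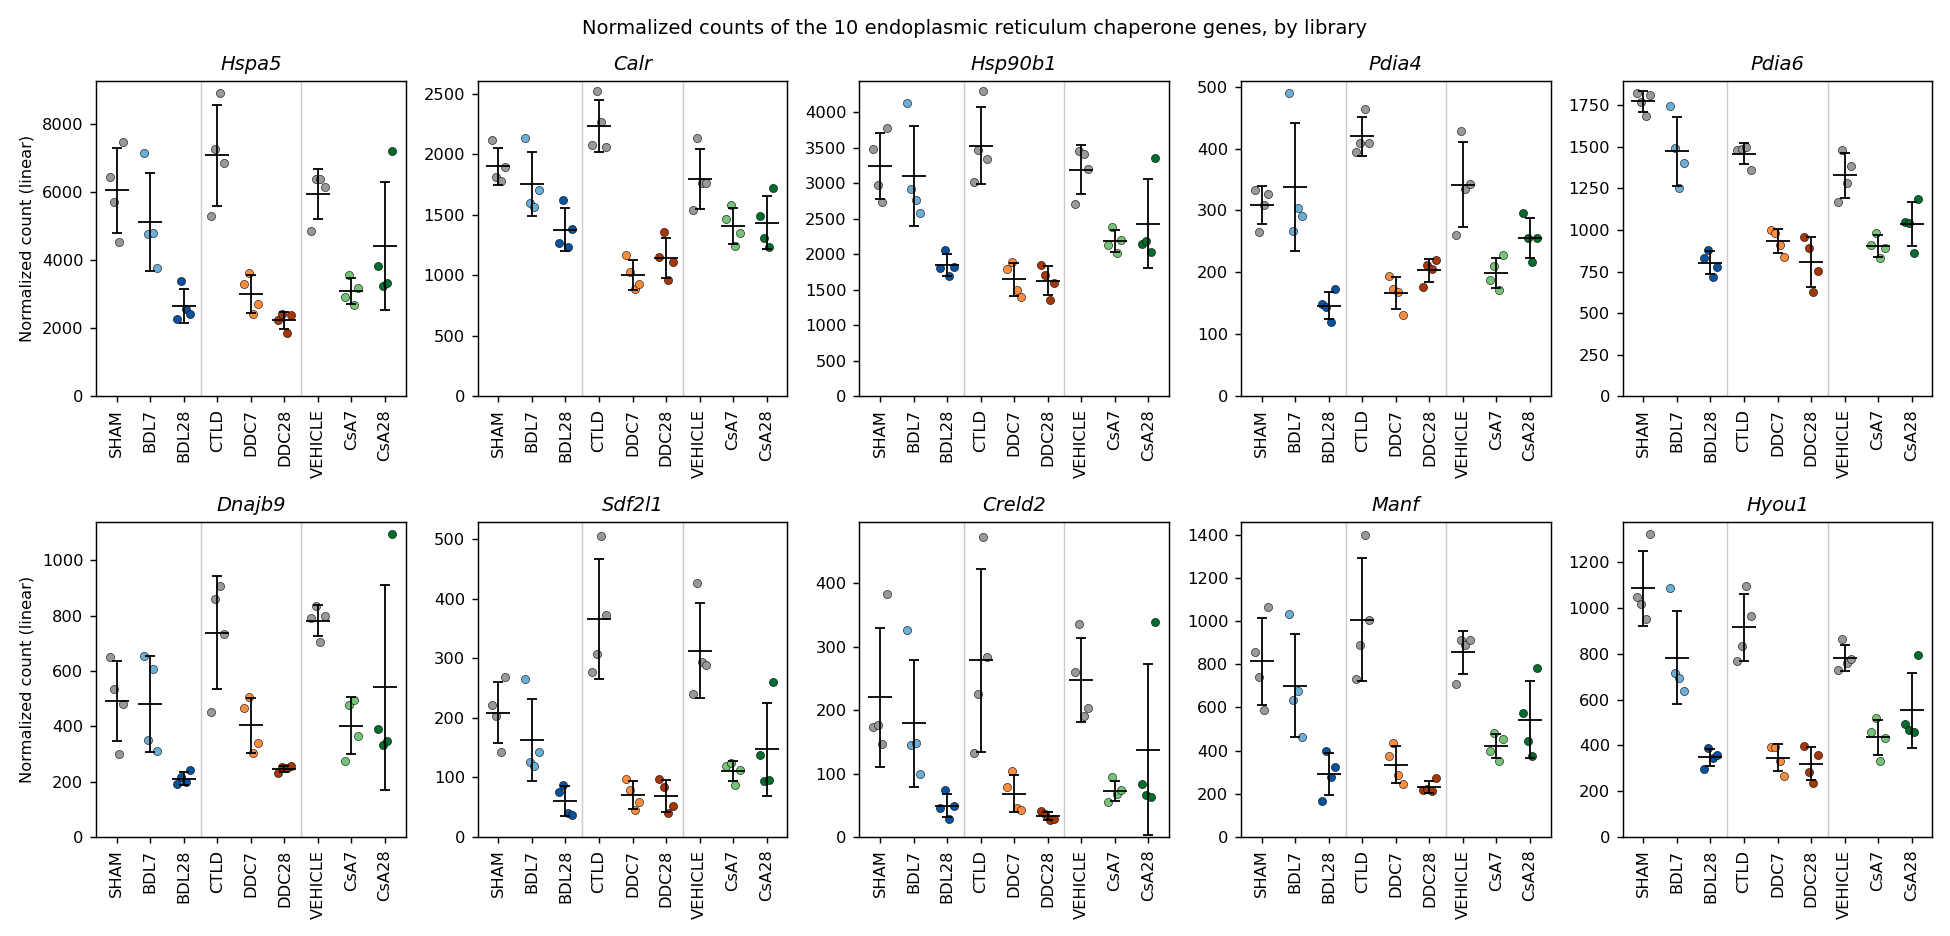
Normalized counts of each of the 10 genes in all 36 libraries on a linear axis from 0; points are libraries, and bars give the mean and SD of 4. In BDL28, DDC7 and DDC28 the mean of each gene lies below that of its own control, with DDC7 overlapping CTLD for Dnajb9. Replicate 4 of CsA28 stands above the other 3 for Hspa5 (7187 against 3823 at most), Dnajb9 and Creld2.

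Pdia4 and Pdia6 are protein disulfide isomerases, which form and rearrange disulfide bonds. Pdia4 was 333, 266, 309 and 327 in SHAM, 490.4, 267, 304 and 291 in BDL7, and 149, 143, 119.8 and 173 in BDL28. It averaged 419 ± 30.9 in CTLD, 167 ± 26.1 in DDC7 and 204 ± 18.6 in DDC28. The log2 fold changes of BDL28, DDC7 and DDC28 were -1.08, -1.33 and -1.04, and the BDL7 change was 0.092 ± 0.15, the only positive one among the 10 genes in the 6 comparisons. Pdia4 fell by 0.76 in CsA7 (342 ± 68.6 in VEHICLE, 199 ± 24.5 in CsA7, adjusted p = 0.00193).

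Pdia6 had the smallest spread of the 10 among SHAM libraries relative to its level. It was 1826, 1769.8, 1686 and 1811 in SHAM, 1746, 1493, 1255 and 1400.5 in BDL7, and 831, 881, 719.7 and 778 in BDL28, and 3 of the BDL7 libraries lay below all SHAM libraries. It fell by 0.28 ± 0.11 in BDL7 (adjusted p = 0.0408) and changed by -1.15 ± 0.11 in BDL28 (adjusted p = 8.63e-11). It also fell in DDC7 (-0.65), DDC28 (-0.87) and CsA7 (-0.55). It was also the only one of the 10 called among the 3 control groups (moderated F test, adjusted p = 0.0128, against 19.4% of all tested genes), with 1773 ± 62.6 in SHAM, 1458 ± 63.1 in CTLD and 1328 ± 135 in VEHICLE.

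Dnajb9 (ERdj4) and Sdf2l1 work with Hspa5, the first as a J-domain protein that stimulates its ATPase and the second in a complex with J-domain proteins. Dnajb9 was 649.5, 535, 299.8 and 479 in SHAM, 654, 349.9, 606 and 311 in BDL7, and 189.9, 215, 197 and 242 in BDL28. BDL28 lay below all SHAM and all BDL7 libraries, and the change was -1.17 ± 0.30 (adjusted p = 0.0024). In DDC7 Dnajb9 fell by 0.85 ± 0.30 (738 ± 204 in CTLD, 404 ± 98.6 in DDC7, adjusted p = 0.0228), a call lost without CTLD replicate 2 or 3 or DDC7 replicate 3 or 4 (-0.73 to -0.78), with library totals as the scaling (-0.50), after quantile normalization (-0.67) and with no filter on low values (adjusted p = 0.0515). In DDC28 it was 246 ± 11.2 and the change was -1.53 ± 0.30. In CsA7 the change was -0.99 ± 0.30 (782 ± 54.3 in VEHICLE, 403 ± 104 in CsA7) with adjusted p = 0.0633 in limma, 0.0494 in edgeR and 0.0213 in DESeq2.

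Sdf2l1 had among the largest falls. It was 222, 204, 143 and 268 in SHAM, 265, 125, 119 and 143 in BDL7, and 75.8, 87.3, 40.9 and 36.4 in BDL28. It was 278, 308, 506 and 373 in CTLD, 98.0, 79.1, 45.8 and 58.8 in DDC7, and 97.5, 84.0, 40.7 and 51.4 in DDC28. Both DDC groups lay below all CTLD libraries. Sdf2l1 fell 3.59-fold in BDL28, 5.21-fold in DDC7, 5.46-fold in DDC28 and 2.77-fold in CsA7 (adjusted p = 5.59e-05, 1.62e-06, 6.85e-07 and 0.0114). In CsA28 the change was -1.18 ± 0.34 (adjusted p = 0.224).

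Hyou1, the large Hsp70-related nucleotide exchange factor of Hspa5, was the second gene called in BDL7. It was 1049, 1018, 954 and 1323 in SHAM, 1088, 715, 695 and 639 in BDL7, and 298, 389.6, 346 and 359 in BDL28. In BDL7, replicate 1 lay within the SHAM range and the other 3 below it, and the change was -0.49 ± 0.18 (adjusted p = 0.029). The change was -1.63 ± 0.18 in BDL28 (adjusted p = 5.9e-09), -1.4 in DDC7, -1.53 in DDC28 and -0.86 in CsA7, all called. Hyou1 averaged 917 ± 147 in CTLD, 347 ± 59 in DDC7, 319 ± 71.8 in DDC28, 784 ± 57.3 in VEHICLE and 436 ± 77.6 in CsA7.

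Manf and Creld2 encode small proteins of the ER that are also secreted under stress. Manf averaged 813 ± 201 in SHAM, 701 ± 239 in BDL7 and 292 ± 98.1 in BDL28, and 1006 ± 285 in CTLD, 335 ± 86.7 in DDC7 and 231 ± 27.6 in DDC28. It fell 2.85-fold in BDL28, 2.98-fold in DDC7, 4.24-fold in DDC28 and 2.03-fold in CsA7. Manf overlaps Rbm15b on the same strand, which had 1706 reads in all libraries against 20102 for Manf. Dcaf1 overlaps it on the other strand with 2334 reads, and how reads were assigned in such overlaps is not given in the sources used here.

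Creld2 had the largest fold change of the 10 in BDL28, DDC28 and CsA7. It was 173, 176, 147 and 383 in SHAM, 326, 144, 149 and 99.2 in BDL7, and 45.3, 73.5, 28.8 and 49.3 in BDL28. It was 132, 225, 474 and 284 in CTLD, 78.4, 105, 45.8 and 43.2 in DDC7, and 40.9, 36.3, 27.1 and 28.5 in DDC28. It was 261, 336, 190.4 and 204 in VEHICLE, 55.7, 94.0, 67.4 and 73.9 in CsA7, and 82.8, 65.5, 62.8 and 339 in CsA28. Controls varied widely, yet the highest BDL28, DDC7, DDC28 and CsA7 libraries lay below the lowest of their controls. Creld2 fell 4.30-fold in BDL28 (log2 -2.10 ± 0.45), 3.91-fold in DDC7 (-1.97 ± 0.45), 7.48-fold in DDC28 (-2.90 ± 0.45) and 3.35-fold in CsA7 (-1.74 ± 0.45).

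In BDL7 the direction rested on the scaling. Scaling to library totals moved the median of all tested genes to 0.33 in BDL7, 0.29 in BDL28, 0.38 in DDC7, 0.39 in DDC28, 0.13 in CsA7 and 0.078 in CsA28. The medians of the 10 genes were then 0.076, -0.91, -0.93, -1.17, -0.77 and -0.44, so that they stayed below those of all genes. Under quantile normalization the BDL7 median of the 10 was 0.16, and Hspa5 (0.51), Calr (0.37) and Hsp90b1 (0.52) were called higher. The calls of Pdia6 and Hyou1 in BDL7 were also both lost without BDL7 replicate 2, 3 or 4 or SHAM replicate 4, and that of Pdia6 without SHAM replicate 1 or 2.

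Under 7 days of cyclosporin the chaperones fell in a comparison with few calls. The 8 called genes were Hspa5, Hsp90b1, Pdia4, Pdia6, Sdf2l1, Hyou1, Manf and Creld2, among 270 genes called lower of 12596. By edgeR and by DESeq2 on the recovered reads, 9 of 10 were called, Calr being the one left out of both. The call of Hsp90b1 was lost with library totals as the scaling, and those of Hspa5 and Hsp90b1 after quantile normalization. Leaving out 1 library gave 5 to 8 calls, with 5 without VEHICLE replicate 2, CsA7 replicate 1 or CsA7 replicate 3, where Hsp90b1, Creld2 and Manf were no longer called. At their weakest in these fits the 3 genes had log2 fold changes of -0.50, -1.58 and -0.94.

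After 28 days of cyclosporin 0 of 10 passed the test in limma, edgeR or DESeq2, in a comparison where limma called 3 genes in all, edgeR 8 and DESeq2 71. At an unadjusted p under 0.05 all 10 were lower, against 4.95% of all tested genes. Their adjusted p-values ran from 0.224 to 0.445. Replicate 4 of CsA28 stood apart: it had 7187 of Hspa5, 3363 of Hsp90b1, 1093 of Dnajb9, 339 of Creld2 and 796 of Hyou1, where the nearest of the other 3 had 3823, 2190, 389.6, 82.8 and 492. Without it the median of the 10 was -0.75, Hspa5 changed by -0.77, Dnajb9 by -1.13 and Creld2 by -1.78, and 0 of 10 were called, with the lowest adjusted p 0.0619. The same library had the highest counts of Ddit3 (CHOP, a death-associated factor downstream of PERK), 293 against 27.2 to 33.3 in the other 3, and of Atf4, 1358 against 659 to 812. Xbp1 was 604 in it and 484 to 605 in the others. The part of this library's stress genes in the result was not tested beyond leaving it out.

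Between day 7 and day 28 all 10 chaperones fell under ligation, and none of the 10 passed the test under DDC or cyclosporin. In BDL28 against BDL7 all 10 fell (median -1.13, against 16.7% of all tested genes called lower), and 9 did not overlap (12.1% of all tested genes). The changes ran from -0.35 for Calr (adjusted p = 0.0269) to -1.78 for Creld2 (adjusted p = 0.00367), with -0.92 for Hspa5, -1.17 for Pdia4 and -1.14 for Hyou1. The call of Calr was lost without BDL7 replicate 1 (-0.25) or BDL28 replicate 1 (-0.31) or 3 (-0.30). In DDC28 against DDC7 0 of 10 were called by limma, edgeR or DESeq2 (median -0.18, with 5.70% of all tested genes called), and 3 were lower at an unadjusted p under 0.05 (10.3% of all tested genes). Of these Dnajb9 (-0.68 ± 0.30) and Creld2 (-0.94 ± 0.45) did not overlap between the days (7.54% of all tested genes, lower), and both were called when the fit held only the groups compared. In CsA28 against CsA7 0 of 10 were called by any of the 3 tools (2.45% of all tested genes were), all 10 log2 differences were positive with a median of 0.30, and 2 had an unadjusted p under 0.05 (7.86%). Without CsA28 replicate 4 that median was 0.046 and 5 of the 10 were negative.

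The models were compared through the difference of their log2 fold changes, each against its own control. At day 7 ligation and DDC differed for 7 of 10 genes, each with the less negative or positive change in BDL7, where 3.78% of all tested genes were called in that direction. The differences were 0.98 for Hspa5 (adjusted p = 0.0371), 1.03 for Calr, 1.02 for Hsp90b1, 1.43 for Pdia4 (adjusted p = 9.74e-05), 1.98 for Sdf2l1, 1.34 for Manf and 0.91 for Hyou1. The 95% intervals of the 3 others were 0.060 to 0.68 for Pdia6, -0.082 to 1.68 for Dnajb9 and 0.33 to 2.95 for Creld2. The count was 4 without BDL7 replicate 1, CTLD replicate 3 or DDC7 replicate 4, where Hspa5, Manf and Hyou1 were no longer called. The call of Hspa5 was lost in 6 further fits that left out 1 library.

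Ligation and cyclosporin at day 7 differed for 1 of 10 genes, Pdia4 (0.85, 95% interval 0.42 to 1.28, limma adjusted p = 0.00317). That count lay near the background, 11.7% of all tested genes in that direction. All 10 differences were positive, and 7 had an unadjusted p under 0.05 (18.0% of all tested genes). For Hspa5 the interval was 0.084 to 1.3 and for Creld2 0.11 to 2.73. The differences of the other 7 were 0.22 for Calr, 0.46 for Hsp90b1, 0.28 for Pdia6, 0.94 for Dnajb9, 1.07 for Sdf2l1, 0.78 for Manf and 0.37 for Hyou1. The count moved with the scaling, to 6 with library totals and 5 after quantile normalization.

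DDC and cyclosporin at day 7 differed for 3 of 10, Calr (-0.81, adjusted p = 0.000575), Hsp90b1 (-0.56, adjusted p = 0.0382) and Pdia4 (-0.57, adjusted p = 0.0412), each lower under DDC, against 12.8% of all tested genes. Calr alone remained called under each of the scalings, tools and left-out libraries that were run. The intervals of the other 7 were -0.89 to 0.32 for Hspa5, -0.40 to 0.22 for Pdia6, -0.74 to 1.02 for Dnajb9, -1.89 to 0.071 for Sdf2l1, -1.06 to -0.027 for Hyou1, -1.30 to 0.19 for Manf and -1.53 to 1.08 for Creld2. Dnajb9 alone had the less negative change under DDC in this fit, by 0.14, and the sign for Hspa5 turned after quantile normalization and that for Pdia6 under both scalings.

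**Figure D3:**
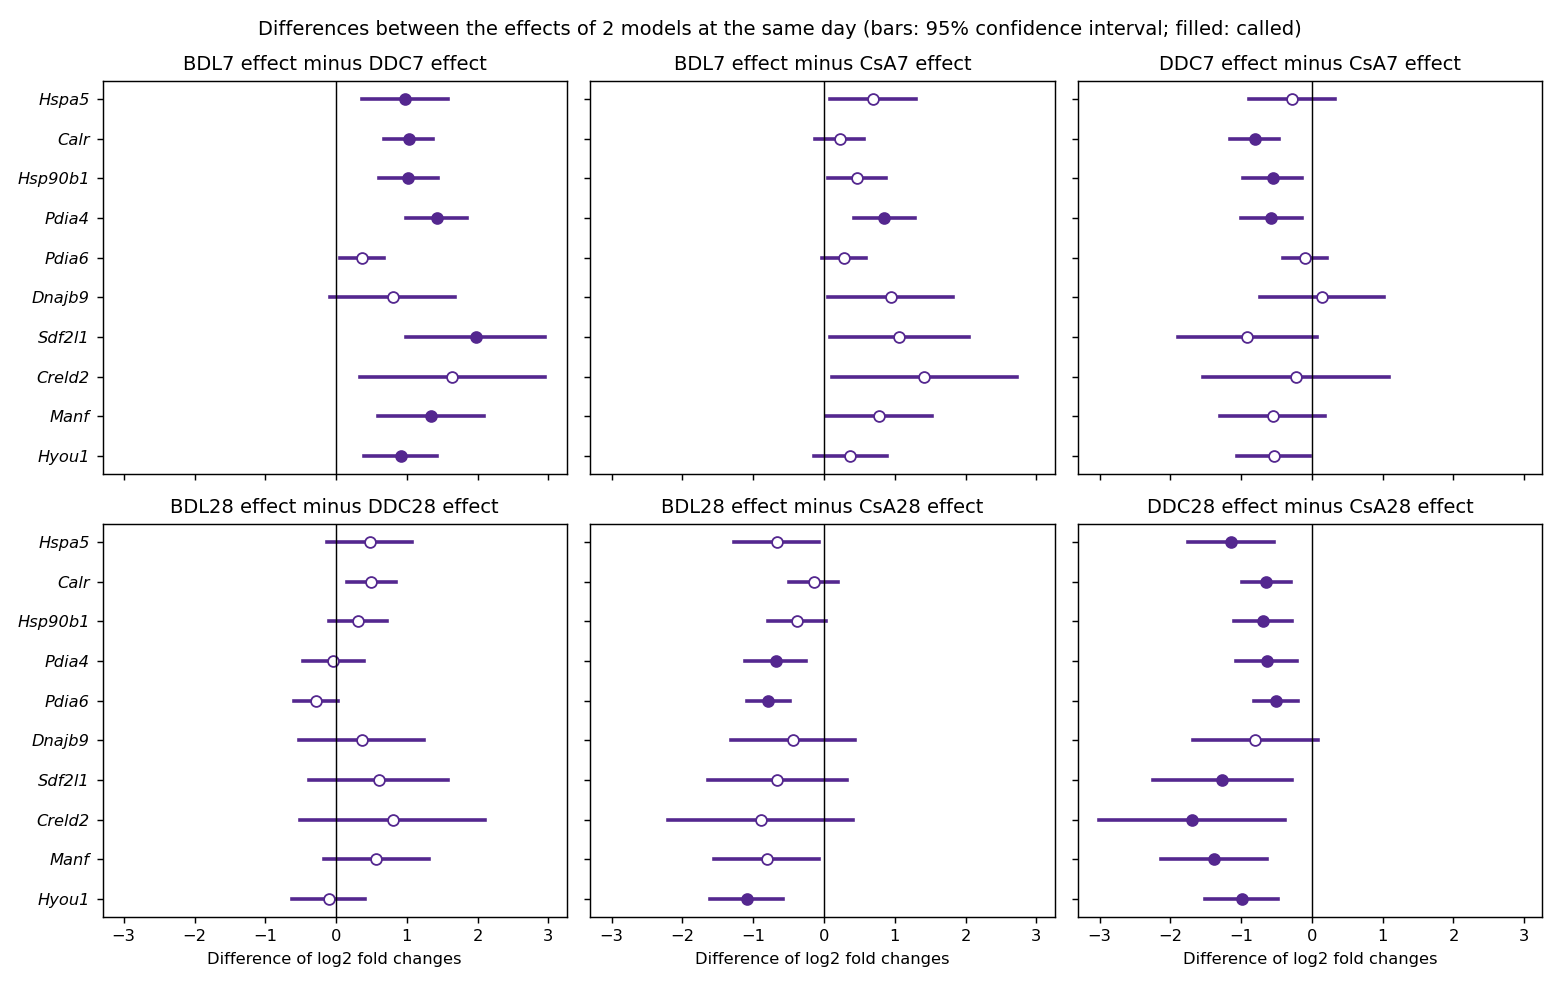
Difference between the log2 fold changes of 2 models at the same day for each of the 10 genes, with 95% confidence intervals from limma; filled points were called. At day 7 the BDL7 effect lies above the DDC7 effect for all 10 genes with 7 called, and at day 28 the DDC28 effect lies below the CsA28 effect for all 10 with 9 called.

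Between ligation and DDC at day 28, 0 of 10 differences were called by limma (10.3% of all tested genes were), 1 at an unadjusted p under 0.05 (11.8% in that direction), 0 by edgeR and 1 by DESeq2. That gene was Calr, at 0.50 (95% interval 0.15 to 0.85, adjusted p = 0.0552). The intervals were -0.13 to 1.08 for Hspa5, -0.47 to 0.39 for Pdia4, -0.62 to 0.42 for Hyou1, -0.51 to 2.11 for Creld2, -0.10 to 0.72 for Hsp90b1, -0.59 to 0.033 for Pdia6, -0.52 to 1.25 for Dnajb9, -0.38 to 1.59 for Sdf2l1 and -0.18 to 1.32 for Manf, so differences of these sizes could not be told from 0.

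At day 28 the change was more negative under ligation than under cyclosporin in all 10 genes. The difference was called in 3 of 10, Pdia4 (-0.68), Pdia6 (-0.78, limma adjusted p = 0.000165) and Hyou1 (-1.09, adjusted p = 0.00134), against 15.0% of all tested genes in that direction. The call of Pdia4 was lost with library totals as the scaling (-0.50, limma adjusted p = 0.0687), and edgeR and DESeq2 also called Hspa5 (adjusted p = 0.0398 and 0.0429). The other 7 differences were -0.67 for Hspa5, -0.39 for Hsp90b1, -0.44 for Dnajb9, -0.66 for Sdf2l1, -0.89 for Creld2, -0.81 for Manf and -0.15 for Calr, the last of which turned positive under both other scalings. The change was more negative under DDC than under cyclosporin in all 10 genes. The difference was called in 9 of 10, all but Dnajb9 (-0.80, limma adjusted p = 0.151), against 17.1% of all tested genes. The differences ran from -0.51 for Pdia6 to -1.69 for Creld2 and were -1.14 for Hspa5 (adjusted p = 0.0032) and -1.38 for Manf (adjusted p = 0.0039). The calls of Sdf2l1 and Creld2 were the least stable. Both were lost with no filter, with only the groups compared, and without CsA28 replicate 4 (-0.95 and -1.13), VEHICLE replicate 1, 3 or 4, CTLD replicate 3 or 4 or DDC28 replicate 3 or 4, which left 7 calls, or 6 without VEHICLE replicate 1, where Pdia4 was lost too. Sdf2l1 was also lost without CsA28 replicate 1. With library totals as the scaling the count was 3, and after quantile normalization it was 5. By edgeR and by DESeq2 it was 10.

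The mean of the 10 genes in a library, on the log2 scale with each gene centred over the 36 libraries, set the groups in order. From low to high the means were -0.80 ± 0.17 in DDC28, -0.73 ± 0.21 in BDL28, -0.55 ± 0.28 in DDC7, -0.28 ± 0.16 in CsA7, 0.0037 ± 0.47 in CsA28, 0.35 ± 0.38 in BDL7, 0.56 ± 0.24 in SHAM, 0.64 ± 0.17 in VEHICLE and 0.81 ± 0.28 in CTLD. Each neighbouring pair of groups overlapped. Over single genes the order had 8 neighbouring pairs each, and those pairs overlapped in all 10 genes except for DDC28 and CsA7 in Dnajb9. CTLD was the highest group for 7 of the 10 genes.

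**Figure D4:**
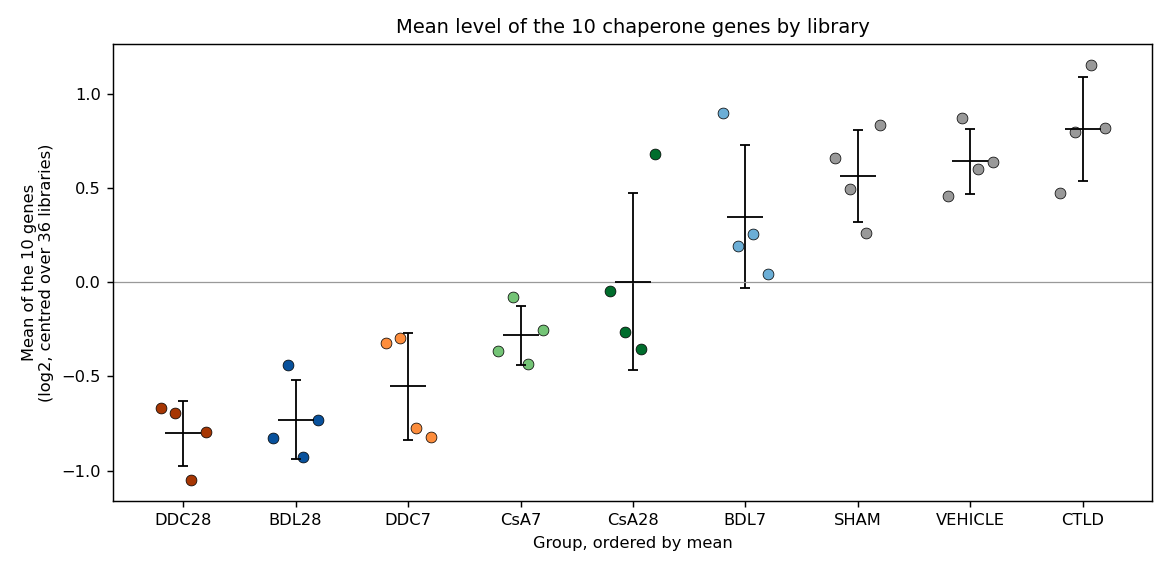
Mean of the 10 genes in each library (log2, each gene centred over 36 libraries), with groups ordered by their mean; points are libraries and bars the mean and SD of 4. The groups run from -0.80 in DDC28 to 0.81 in CTLD, and the CsA28 libraries spread from -0.36 to 0.68.

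The 10 genes varied together. The correlation between 2 of them over the 36 libraries ran from 0.63 (Calr and Dnajb9) to 0.97 (Hspa5 and Manf), with a median of 0.87 over 45 pairs. With group means subtracted it ran from 0.30 (Pdia6 and Dnajb9) to 0.93, with a median of 0.69. The libraries share depth and scaling between genes, so these values are a description. The tested genes outside the list with the highest correlation with the mean of the 10 over 36 libraries were Pdia3 (r = 0.96), a disulfide isomerase that works with calreticulin, Dnajb11 (0.96), a J-domain partner of Hspa5, Ssr1 (0.95), a subunit of the translocon-associated complex, Magt1 (0.94) and Yipf5 (0.93). With group means subtracted they were Syvn1 (0.88), the ubiquitin ligase of ER-associated degradation, Pdia3 (0.87), Dnajb11 (0.86), Hsph1 (0.83), a cytosolic heat shock protein, and Yipf5 (0.80).

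Other genes of the folding pathway were counted in the same way, and the counts of each list are to be read against the shares of all tested genes called lower (18.5% in BDL7, 22.7% in BDL28, 22.1% in DDC7, 24.7% in DDC28 and 2.14% in CsA7). Of 27 tested genes of a list of other ER folding factors, 21 fell and 1 rose in BDL28 (median -0.63), 21 fell and 1 rose in DDC7 (-0.52), 23 fell and 2 rose in DDC28 (-0.61), and 7 fell and 0 rose in CsA7 (-0.23). In BDL7 12 fell and 1 rose (-0.25), and the median was 0.074 with library totals as the scaling. Ppib, an ER prolyl isomerase, fell in BDL28 (-1.18), DDC7 (-1.14) and DDC28 (-1.34). Ero1lb, an oxidase that recharges disulfide isomerases, fell in BDL28 (-1.69), DDC28 (-2.19) and CsA7 (-0.78). Dnajc10, a J-domain disulfide reductase, rose by 0.89 in BDL7. In CsA28 0 of 27 were called.

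Of 19 genes of ER-associated degradation, which removes misfolded proteins, 10 fell and 1 rose in BDL28, 12 fell and 0 rose in DDC7, 12 fell and 1 rose in DDC28, 6 fell in CsA7 and 8 fell and 1 rose in BDL7. Sel1l, the partner of Syvn1, fell in BDL28 (-0.90), DDC7 (-1.29), DDC28 (-1.32) and CsA7 (-0.69), and Syvn1 fell in CsA7 (-1.6). Of 26 genes of translocation and glycosylation 18 fell in BDL28 and in DDC7, 16 fell and 1 rose in DDC28, 8 fell in BDL7 and 5 fell in CsA7. With library totals as the scaling the BDL7 medians of these lists turned from -0.29 to 0.029 and from -0.098 to 0.22, and the DDC28 median of the latter from -0.34 to 0.024. Ssr1 fell in BDL28 (-0.73), DDC7 (-0.67), DDC28 (-0.69) and CsA7 (-0.38).

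Among the sensors, Atf6 and Eif2ak3 (PERK) were not called in any of the 6 comparisons; Atf6 averaged 204 ± 19.7 in SHAM, 220.5 ± 24.2 in BDL28, 244 ± 22.9 in CTLD and 226 ± 11.2 in DDC28. Ern1 (IRE1) fell from 283 ± 18.3 in SHAM to 101 ± 29.6 in BDL28 (log2 -1.52 ± 0.19) and from 189.5 ± 27.3 in CTLD to 103 ± 37.4 in DDC28 (-0.93 ± 0.19). Total Xbp1, which the 3′ reads do not divide by splicing, fell in BDL28 (-0.65), DDC7 (-0.53), DDC28 (-0.44), CsA7 (-0.51) and BDL7 (-0.41). In the list of 15 sensors and factors 4, 5, 5, 7, 3 and 0 fell in BDL7, BDL28, DDC7, DDC28, CsA7 and CsA28, against 18.5%, 22.7%, 22.1%, 24.7%, 2.14% and 0.0159% of all tested genes, and 1, Mbtps2, rose in BDL28, DDC7 and DDC28. With library totals as the scaling its medians were positive in all 6, among them 0.17 in BDL28 (from -0.092) and 0.16 in DDC28 (from -0.20). Creb3l3, a liver transcription factor released from the ER by proteolysis, fell in BDL28 (-1.37) and DDC28 (-1.34), and Mbtps2, one of the proteases that release ATF6, rose by 1.12 in DDC28, 1.07 in DDC7 and 0.88 in BDL28.

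Genes of the integrated stress response, which the PERK and ATF4 branch raises, had positive medians in BDL28, DDC7 and DDC28 (0.36, 0.40 and 0.64). Of 14 tested genes, 2 rose and 1 fell in BDL7, 4 rose and 1 fell in BDL28, 5 rose and 1 fell in DDC7, 4 rose and 1 fell in DDC28, and 2 rose and 0 fell in CsA7. Of all tested genes, 20.2%, 24.1%, 24.7%, 27.9% and 1.88% were called higher in these comparisons, so that the counts under ligation and DDC lay near the background. Trib3, a pseudokinase induced by ATF4, rose by 1.96 in DDC7, 2.74 in DDC28 and 2.58 in CsA7, and Asns, asparagine synthetase, rose by 2.46 in BDL28. Ddit3 changed by -1.77 ± 0.44 in DDC28 (50.4 ± 3.09 in CTLD, 14.1 ± 1.28 in DDC28, limma adjusted p = 0.00117). Its level also varied between controls, with 19.2 ± 3.56 in SHAM and 44.6 ± 9.83 in VEHICLE, and it was 15.3 ± 5.86 in BDL28. Atf4 itself was not called against a control in any of the 6 comparisons.

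**Figure D5:**
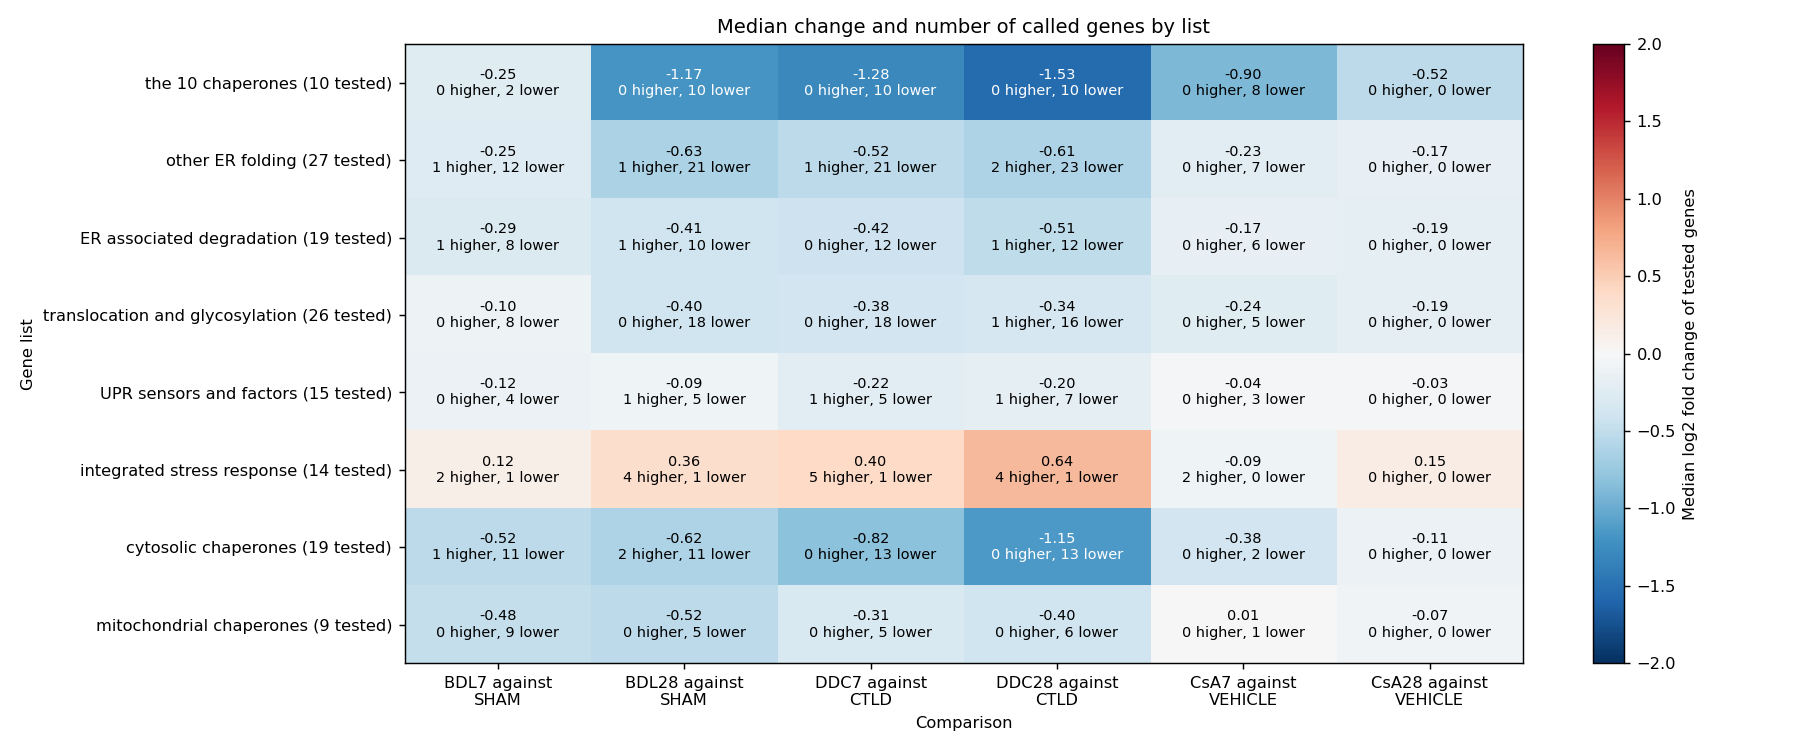
Median log2 fold change of the tested genes of 8 lists (rows) in the 6 comparisons (columns), with the numbers called higher and lower in each cell; colour gives the median. The row of the 10 chaperones reaches -1.53 in DDC28, the row of other ER folding genes -0.63 in BDL28, and the integrated stress response row 0.64 in DDC28.

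Chaperones of other compartments were counted beside them. Of 19 cytosolic chaperones 11 fell and 1 rose in BDL7, 11 fell and 2 rose in BDL28, 13 fell in DDC7 and in DDC28, and 2 fell in CsA7. Hsph1 fell in BDL28 (-3.51), DDC7 (-3.37) and DDC28 (-3.95), and Hspa8, the constitutive Hsp70, fell in DDC7 (-1.5), DDC28 (-1.41) and CsA7 (-0.60). Of 9 mitochondrial chaperones 9 fell in BDL7, 5 in BDL28, 5 in DDC7, 6 in DDC28 and 1 in CsA7. Their medians were -0.48 in BDL7 and -0.52 in BDL28, and those in DDC7 (-0.31) and DDC28 (-0.40) became 0.039 and -0.038 with library totals as the scaling. Hspd1 (Hsp60) fell in BDL7 (-0.68) and BDL28 (-0.59). In CsA28 0 genes of these 2 lists were called.

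The genes that share the ERSE letters outside the list were examined in the same comparisons. There were 30, of which 11 were tested. In BDL28 7 fell and 2 rose, in DDC7 6 fell and 1 rose, in DDC28 6 fell and 3 rose, in CsA7 4 fell and in BDL7 3 fell and 3 rose. Of all tested genes, 22.7%, 22.1%, 24.7%, 2.14% and 18.5% were called lower in these comparisons, in that order. The shares called higher were 24.1%, 24.7%, 27.9%, 1.88% and 20.2%, so the BDL7 counts lay near the background. The falls included the ER genes Canx, Derl3, Dnajc3 and Syvn1 in BDL28, DDC7 and DDC28, with Derl3 at -3.27, -2.71 and -2.94. Acacb, which is in none of the lists counted above, had the largest fall in BDL28 (-4.75) and DDC28 (-3.25). It also fell in DDC7 (-1.66) and BDL7 (-1.29), and Xlr3a, likewise in no list, fell in BDL28 (-1.83). Alg12, a mannosyltransferase of the ER, has its match at the same bases as Creld2, which is transcribed away from it. Alg12 fell in BDL28 (-0.63, limma adjusted p = 0.0478), DDC7 (-1.17) and DDC28 (-1.26). Acnat2, an acyltransferase, rose by 1.63 in BDL28 and 1.76 in DDC28 and fell in CsA7 (-1.98). The letters were thus found both before genes that fell and before genes that rose.

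Markers of other liver cells moved in the same comparisons under ligation and DDC. Of all tested genes, 18.5%, 22.7%, 22.1%, 24.7%, 2.14% and 0.0159% were called lower in BDL7, BDL28, DDC7, DDC28, CsA7 and CsA28. The shares called higher were 20.2%, 24.1%, 24.7%, 27.9%, 1.88% and 0.00794%, in that order. The marker counts here and in the next paragraph are to be read against these shares. Hepatocyte markers were called lower for 7 of 8 genes in BDL7, 5 in BDL28, 6 in DDC7, 7 in DDC28 and 0 in CsA7 and CsA28, with medians of -0.67, -0.43, -0.69, -0.71, -0.27 and -0.088. The summed normalized counts of the 8 hepatocyte markers were 59655 to 66448 in SHAM, 33618 to 42570.1 in BDL7, 39337 to 46116 in BDL28, 69869.9 to 88276 in CTLD, 38843 to 49543 in DDC7, 38027 to 47274 in DDC28, 72838 to 85435 in VEHICLE, 61728 to 72488 in CsA7 and 67140.4 to 77636 in CsA28. None of the 8 was at 0 throughout a group. After quantile normalization the hepatocyte medians were -0.084 in BDL7, 0.15 in BDL28, 0.020 in DDC7 and -0.015 in DDC28. Cholangiocyte markers rose for 7 of 7 in BDL7, 6 in BDL28, 4 in DDC7 and 6 in DDC28, and summed to 305 to 496 in SHAM against 985 to 2869 in BDL28, and to 313 to 419 in CTLD against 1265 to 2407 in DDC28. Krt7 was at 0 in all SHAM libraries.

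Macrophage markers rose for 7, 5, 6 and 5 of 8 in BDL7, BDL28, DDC7 and DDC28, and Clec4f fell in BDL28 (-1.10), with sums of 357 to 520.2 in SHAM, 889 to 1708 in BDL28, 429 to 487 in CTLD and 1506 to 2280.2 in DDC28. Fibroblast markers rose for 4, 3, 4 and 5 of 6 tested, and Lrat fell in BDL28 (-1.69), with sums of 908 to 1123 in SHAM, 886 to 3284 in BDL28, 1151 to 1396 in CTLD and 1927 to 3293 in DDC28. The 3 tested neutrophil markers rose in these 4 groups, with sums of 28.5 to 44.0 in SHAM and 183 to 459 in BDL28, and of 8.11 to 19.6 in CTLD and 347 to 383 in DDC28. In VEHICLE they ran from 5.36 to 279. Sinusoidal endothelial markers fell for 1, 3, 2 and 5 of 5 in BDL7, BDL28, DDC7 and DDC28. The count in BDL7 lay near the background of 18.5%. Markers of plasma cells, which have an abundant ER, and of B cells summed together to 12.8 to 85.4 in all 9 groups. Tnfrsf17, 1 of these markers, was at 0 in 8 of the 9 groups. Of 3 tested, 1 rose and 1 fell in BDL28 and 2 rose in DDC28. The 8 exocrine pancreas markers summed to 110 to 139 in SHAM, 26.9 to 43.7 in BDL7, 25.7 to 42.3 in BDL28, 138 to 211 in CTLD, 37.6 to 51.0 in DDC7, 44.3 to 63.8 in DDC28, 101 to 128 in VEHICLE, 103 to 162 in CsA7 and 84.8 to 101 in CsA28. In SHAM, CTLD and VEHICLE 6 of the 8 were at 0, so the sums there came from Cela1 and Cela2a alone. In CsA7 only Pnlip was at 0. The 1 pancreas marker tested, Cela1 (an elastase), fell in BDL7 (-1.73), BDL28 (-1.85), DDC7 (-2.09) and DDC28 (-1.81), and Cpa1 and Cpb1 were at 0 in 8 of the 9 groups. In CsA7, where 8 of 10 chaperones fell, 1 cholangiocyte marker fell and 1 macrophage marker rose, and 0 markers of the other 6 lists were called. Only 2.14% of all tested genes were called lower and 1.88% higher there. The summed hepatocyte markers were 61728 to 72488 in CsA7, below the 72838 to 85435 of VEHICLE. The part of changed cell proportions, or of these markers, in the fall of the chaperones under ligation, DDC or cyclosporin was not tested.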

How the data were processed

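Gene counts were made by the authors from 3′ mRNA libraries (QuantSeq 3′ FWD with unique molecular identifiers, per the labels' protocols). Per the submitters' processing notes, the build was GRCm39 and the tools included STAR 2.7.9a, RSEM 1.3.1, DESeq2, UMI-tools 1.1.1 and Trim Galore, with roles and settings not given in the sources used. The values deposited by the authors are a signal, gene counts divided by 1 factor per library. Whole reads were recovered for 100.0% of values within 0.001 of a read, 2081093 to 3770267 per library (median 2826073).

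Symbols came from GENCODE M21 (29121 genes with a symbol, 425 without; 28 duplicated symbols were kept as identifiers). The filter was a value of 10 or more in 4 or more libraries. Values were taken as log2(value + 1) and fitted in limma 3.58.1 (R 4.3.3) with 1 coefficient per group over 36 libraries, trend and robust settings on, and Benjamini-Hochberg adjusted p under 0.05. edgeR 4.0.16 and DESeq2 1.42.0 on the recovered reads were alternatives; in CsA7 they called 579 and 661 genes against 507 in limma. Other alternatives were a pseudocount of 4, no filter, library totals, quantile normalization, no trend, a replicate block, only the groups compared, all 12 controls pooled and each library left out. The tests were tested on simulated data.

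The genes, the lists and the tests were chosen with earlier results of these data known. The rule for named genes took all 10 in every comparison, which the text gives one by one or by count and range, up to 3 genes per other list by lowest adjusted p, the 6 sensor and factor genes Xbp1, Atf6, Ern1, Eif2ak3, Atf4 and Ddit3, and the 5 genes most like the mean of the 10; genes with an ERSE match were named after their values were seen. Promoter sequences are from RefSeq (GRCm38.p6).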

Additional observations from a re-analysis of the deposited data

Results flagged for a closer look

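In 12 of 90 groups of 4 libraries 1 value lay far from the other 3 by Dixon's criterion, which by chance picks about 1 in 20 groups. The genes varied together over the same libraries, so the 90 groups are not independent. The same library can be flagged for several genes, and the 12 cannot be weighed against that chance rate. Replicate 4 of CsA28 was high for 5 genes: Hspa5 at 7187 (nearest 3823), Hsp90b1 at 3363 (2190), Dnajb9 at 1093 (389.6), Creld2 at 339 (82.8) and Hyou1 at 796 (492). Replicate 1 of BDL7 was high for Pdia4 at 490.4 (304), Sdf2l1 at 265 (143) and Hyou1 at 1088 (715). Replicate 1 of VEHICLE was low for Hspa5 at 4849 (6132) and Manf at 707 (888), replicate 4 of CTLD was low for Pdia6 at 1364 (1484), and replicate 4 of SHAM was high for Creld2 at 383 (176).

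The effects of 2 models differed by the limma test of the difference in 23 of 60 cases. BDL7 less DDC7 gave 0.98 for Hspa5, 1.03 for Calr, 1.02 for Hsp90b1, 1.43 for Pdia4, 1.98 for Sdf2l1, 1.34 for Manf and 0.91 for Hyou1. BDL7 less CsA7 gave 0.85 for Pdia4. DDC7 less CsA7 gave -0.81 for Calr, -0.56 for Hsp90b1 and -0.57 for Pdia4. BDL28 less CsA28 gave -0.68 for Pdia4, -0.78 for Pdia6 and -1.09 for Hyou1. DDC28 less CsA28 gave -1.14 for Hspa5, -0.64 for Calr, -0.70 for Hsp90b1, -0.64 for Pdia4, -0.51 for Pdia6, -1.27 for Sdf2l1, -1.69 for Creld2, -1.38 for Manf and -0.99 for Hyou1.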

How the results depend on the processing

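All 10 genes were called lower in DDC28 under every alternative run, 9 or 10 in BDL28 and 8 to 10 in DDC7. The BDL7 counts did not hold: the 2 lower genes became 0 with no filter, library totals or quantile normalization and 1 without trend or with only the groups compared, 12 controls pooled gave 1 that was neither of the 2 (Sdf2l1, -0.87), and the count was 0 to 2 with a library left out. Genes called higher in BDL7 went from 0 to 1 with library totals and 3 after quantile normalization. In CsA7 the 8 became 5 with no filter and 5 to 8 with a library left out, and in CsA28 the 0 became 2 with 12 controls pooled. The CsA7 call of Hsp90b1 was also lost with library totals, and those of Hspa5 and Hsp90b1 after quantile normalization. DDC28 against DDC7 went from 0 to 2 with only the groups compared. Of the differences between models, BDL7 and DDC7 (7) gave 4 with no filter and 4 to 7 with a library left out. BDL7 and CsA7 (1) gave 6 with library totals, 5 after quantile normalization, 2 with only the groups compared and 1 to 2 with a library left out. DDC7 and CsA7 (3) gave 1 with no filter, library totals, quantile normalization or no trend, and 1 to 3 with a library left out, 1 being the value without VEHICLE replicate 1, CTLD replicate 2 or 3, CsA7 replicate 2 or 4, or DDC7 replicate 3 or 4. BDL28 and DDC28 (0) gave 1, Calr, in DESeq2, and 0 to 1 with a library left out, 1 without BDL28 replicate 1, DDC28 replicate 2 or SHAM replicate 1. BDL28 and CsA28 (3) gave 2 with library totals, 4 in edgeR and DESeq2 and 3 to 4 with a library left out. DDC28 and CsA28 (9) gave 3 with library totals, 5 after quantile normalization and 6 to 9 with a library left out. The controls (1) gave 3 with only the groups compared and 1 to 2 with a library left out, 2 without VEHICLE replicate 2. The cause of these changes was not tested.

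Signs turned in BDL7 with library totals for Hspa5 (0.069), Calr (0.20), Hsp90b1 (0.25), Pdia6 (0.048), Dnajb9 (0.27) and Manf (0.083), and after quantile normalization for the same genes (0.51, 0.37, 0.52, 0.13, 0.18 and 0.045). Pdia4 in BDL7 was -0.099 with 12 controls pooled. Calr turned with library totals in CsA28 against CsA7 (-0.030) and in BDL28 less CsA28 (0.035, and 0.022 after quantile normalization). In DDC7 less CsA7, Hspa5 was 0.22 after quantile normalization, and Pdia6 was 0.12 with library totals and 0.13 after quantile normalization. With a library left out, ranges crossing 0 were, in BDL7, -0.22 to 0.00082 for Hsp90b1, -0.10 to 0.19 for Pdia4 and -0.27 to 0.13 for Dnajb9. In DDC28 against DDC7 they were -0.088 to 0.071 for Hsp90b1, -0.27 to 0.15 for Sdf2l1 and -0.25 to 0.0043 for Hyou1. In CsA28 against CsA7 they were -0.070 to 0.092 for Calr, -0.040 to 0.20 for Hsp90b1, -0.14 to 0.43 for Dnajb9, -0.031 to 0.46 for Sdf2l1 and -0.033 to 0.77 for Creld2. In DDC7 less CsA7 they were -0.076 to 0.27 for Dnajb9 and -0.53 to 0.079 for Creld2, and in BDL28 less DDC28 -0.13 to 0.049 for Pdia4 and -0.23 to 0.012 for Hyou1.

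Groups share replicate numbers in the labels, but in none of the 9 comparisons did the deviations of all 4 same-numbered pairs correlate over 0.1 (range -0.13 to 0.15), the threshold for treating the numbers as pairs. All 4 were positive in DDC7 and DDC28 against CTLD, at most 0.054. With the replicate block, BDL28 and DDC28 gave 1 (Calr, 0.50) in place of 0, and 149 of 150 gene values kept their direction and call. Of 8 libraries in a comparison, 0 to 6 correlated best with their own number. These replicate numbers are those of the sample descriptions. The sample titles carry different numbers for many libraries, and those were not treated as pairs.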
